A study of Mus musculus with 6 samples.

Results

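The Hox genes encode homeodomain transcription factors that lie in 4 clusters, a to d, and are numbered by paralogue group along each cluster. Members were taken as the rows whose platform gene symbol was Hoxa, Hoxb, Hoxc or Hoxd followed by a number, which left out antisense transcripts. This gave 38 of the 24675 genes with a symbol, with 10 genes in cluster a, 10 in b, 9 in c and 9 in d. By paralogue number, 14 fell in groups 1 to 5, 12 in groups 6 to 9 and 12 in groups 10 to 13.

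The arrays, Affymetrix mouse Gene 2.0 ST, measured RNA from C57Bl/6 mouse embryos at embryonic day 10.5. The dorsal group (3 arrays) was the tissue that lies above the aorta and below the notochord, and the ventral group (3 arrays) was the tissue beneath the aorta. No genotype or treatment is given for either group. Per the labels both regions were cut by laser from cryosections of the same embryos and are numbered as biological replicates 1 to 3. The number of embryos behind an array is not stated, so the p-values measure only the spread between these samples. Amplification started from between 200 and 1000 pg of RNA. A signal is the RMA value in log2 units, and a difference is the ventral minus the dorsal mean.

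Hox genes are known for collinear expression: genes at the low-numbered end of a cluster start earlier and reach further towards the head, and high-numbered genes are restricted towards the tail. Combinations of Hox proteins give the vertebrae, spinal cord, gut and lateral mesoderm their position along the trunk. The proteins bind DNA together with TALE cofactors of the Pbx, Meis and Pknox families. The comparison is made at embryonic day 10.5 only, and it asks whether the tissue beneath the aorta differs from the tissue above it.

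No Hox gene passed the threshold between ventral and dorsal tissue, and most had slightly lower ventral values. In limma with the replicate number as a block, 0 of 38 members reached an adjusted p under 0.05, as did 0% of all genes. The adjusted p of the members lay between 0.437 and 1.00. At an unadjusted p under 0.05 there were 3 members lower in ventral tissue, Hoxb4, Hoxb7 and Hoxc5, where 5.9% of all genes were, and 0 members higher, where 4.32% were. The difference was below 0 in 27 members and above 0 in 11. Over all genes 58% lay below 0. This share depended on the signal: it was 65.0% among genes with a mean below that of the median gene and 50.9% among the others. Of the Hox genes these were 13 of 17 and 14 of 21. At an unadjusted limma p under 0.05 in this fit, 840 of the 12337 dimmer genes were lower and 242 higher. Of the 12338 brighter genes 617 were lower and 823 higher. The median difference was -0.10 over the Hox genes and -0.06 over all genes.

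**Figure D1:**
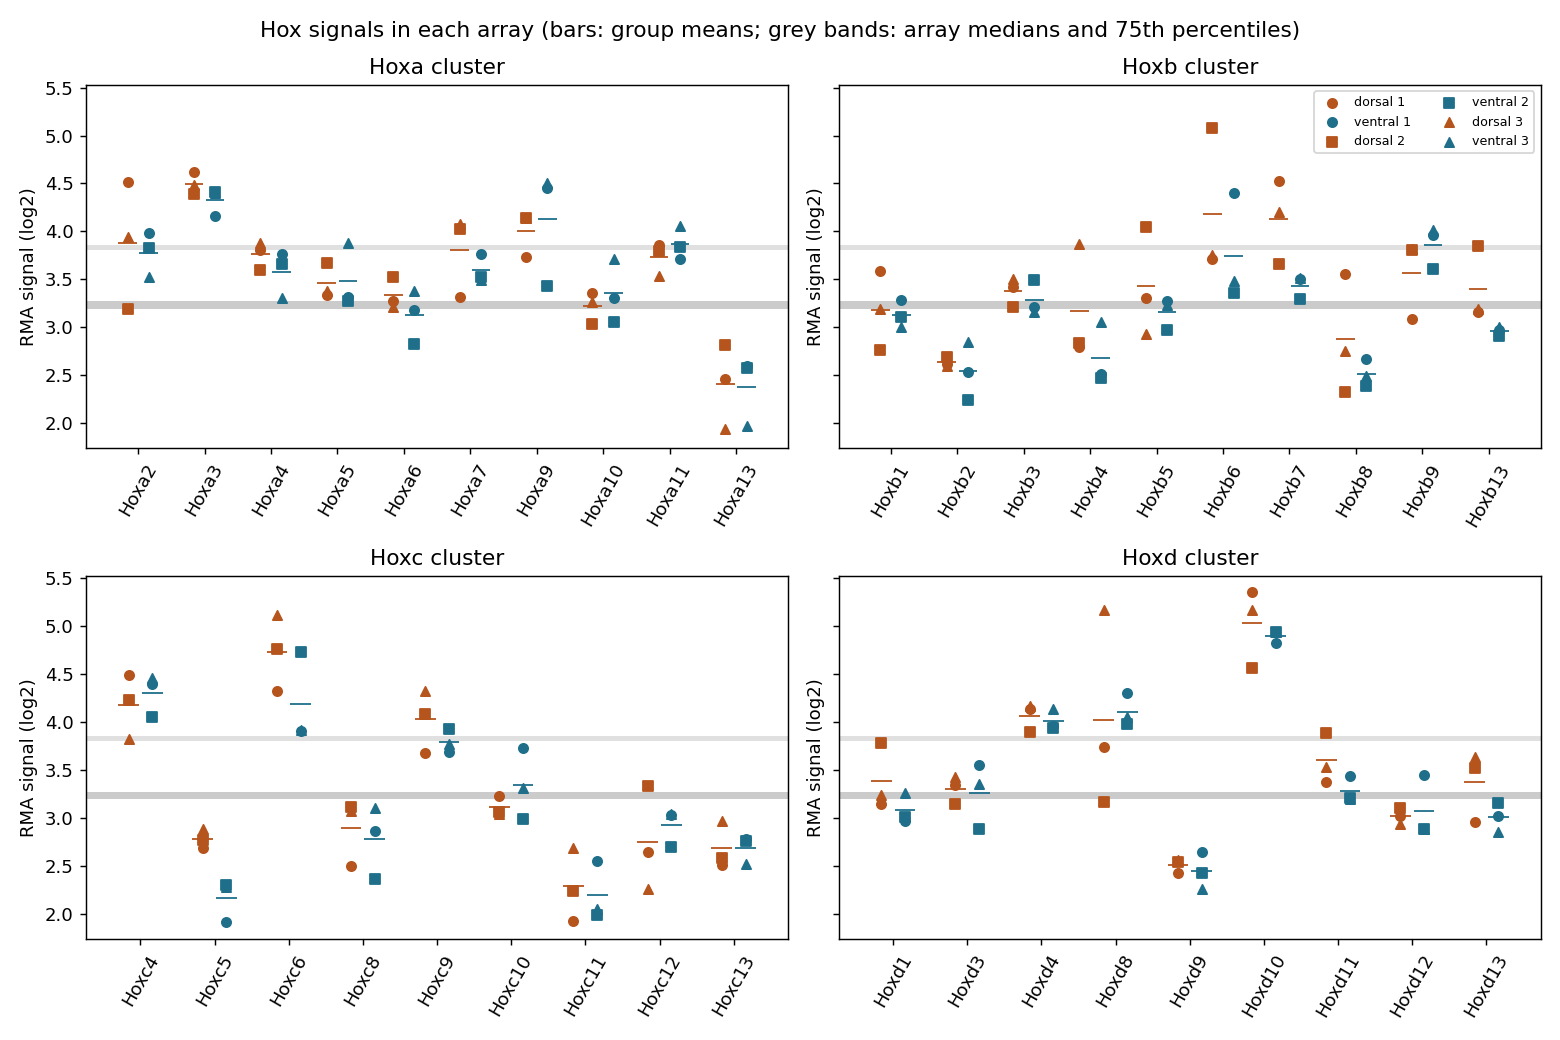
RMA signal (log2) of each Hox gene in each of the 6 arrays, by cluster, with dorsal arrays in orange and ventral arrays in blue; short bars are group means, and grey bands span the array medians and 75th percentiles. Hoxd10 lay above the upper band in every array, Hoxc5 lay below the lower band in every array, and dorsal and ventral points of most genes are interleaved.

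Many Hox signals lay near the middle of the array. In all 6 arrays 13 members exceeded the array median and 7 fell below it, and the other 18 crossed it. Members above the 75th percentile of the array in all 6 arrays numbered 4, Hoxa3, Hoxc6, Hoxd4 and Hoxd10, where 12.4% of all genes were. Signals of different probe sets are not levels on one scale, and no detection calls were used, so a low signal was not shown to be above background. Dorsal arrays varied more than ventral arrays: the median SD of a Hox gene was 0.34 dorsally and 0.20 ventrally, and over all genes it was 0.26 and 0.18. The dorsal SD was the larger in 23 of 38 members, where 66% of all genes showed this. Ventral array 2 held the lowest value of 12 of 38 members and the highest value of 0, where it held the lowest of 18.2% and the highest of 10.4% of all genes.

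Hoxb7 had the largest Hox difference. Hoxb7 is a trunk gene of paralogue group 7. Its signal was 4.53, 3.67 and 4.20 in dorsal arrays 1, 2 and 3, and ventrally it was 3.50, 3.29 and 3.51. All dorsal values lay above all ventral values. The difference was -0.70 ± 0.20 (SE), a 1.62-fold higher dorsal level with a 95% interval from -1.19 to -0.21 on the log2 scale. Its limma p was 0.0136 unadjusted and 0.437 adjusted over all genes, and it ranked 763 by p among them.

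Hoxc5 and Hoxb4 were the other members at an unadjusted p under 0.05. Hoxc5, a gene of the neck and upper trunk, had 2.69, 2.77 and 2.89 in dorsal arrays 1, 2 and 3, and ventrally it was 1.91, 2.30 and 2.28. These groups did not overlap either, but every value lay below the median of its array. The difference was -0.62 ± 0.17 (SE), with an unadjusted limma p of 0.0126 and an adjusted p of 0.437. Hoxb4, which is known for its effect on the expansion of haematopoietic stem cells, had 2.79, 2.84 and 3.87 dorsally and 2.51, 2.47 and 3.05 ventrally. Only 1 of these values, that of dorsal array 3, exceeded the median of its array. Ventral array 3 exceeded dorsal arrays 1 and 2, so the groups overlapped, although Hoxb4 was lower in ventral tissue within each replicate number, with differences of -0.28, -0.37 and -0.82. Dorsal array 3 is the high value, and leaving it out, without the block, took the difference to -0.14 with an unadjusted limma p of 0.560. Its difference was -0.49 ± 0.19, and the unadjusted limma p of 0.0449 became 0.168 without the block, and the adjusted p was 0.484 with it and 0.580 without it. Without the block 2 members, Hoxb7 and Hoxc5, were lower at an unadjusted p under 0.05, where 6.84% of all genes were, and 0 were higher, where 4.36% were.

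Groups that did not overlap were found for 3 members lower in ventral tissue, Hoxb7, Hoxc5 and Hoxb13, where 12% of all genes were, and for 0 members higher, where 6.74% were. Hoxb13, a gene of the tail end of the axis, had 3.16, 3.85 and 3.19 dorsally and 2.97, 2.91 and 3.00 ventrally. The dorsal mean rests on array 2, the only array in which Hoxb13 exceeded the array median. The difference of -0.44 had an unadjusted limma p of 0.0965. Members lower in ventral tissue within all 3 replicate numbers were 5, namely Hoxb4, Hoxb7, Hoxb13, Hoxc5 and Hoxc6, where 21.8% of all genes were. Members higher in all 3 were 0, where 13.3% of all genes were. As shares of the 38 members, 13.2% and 0%, both lie below those of all genes.

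**Figure D2:**
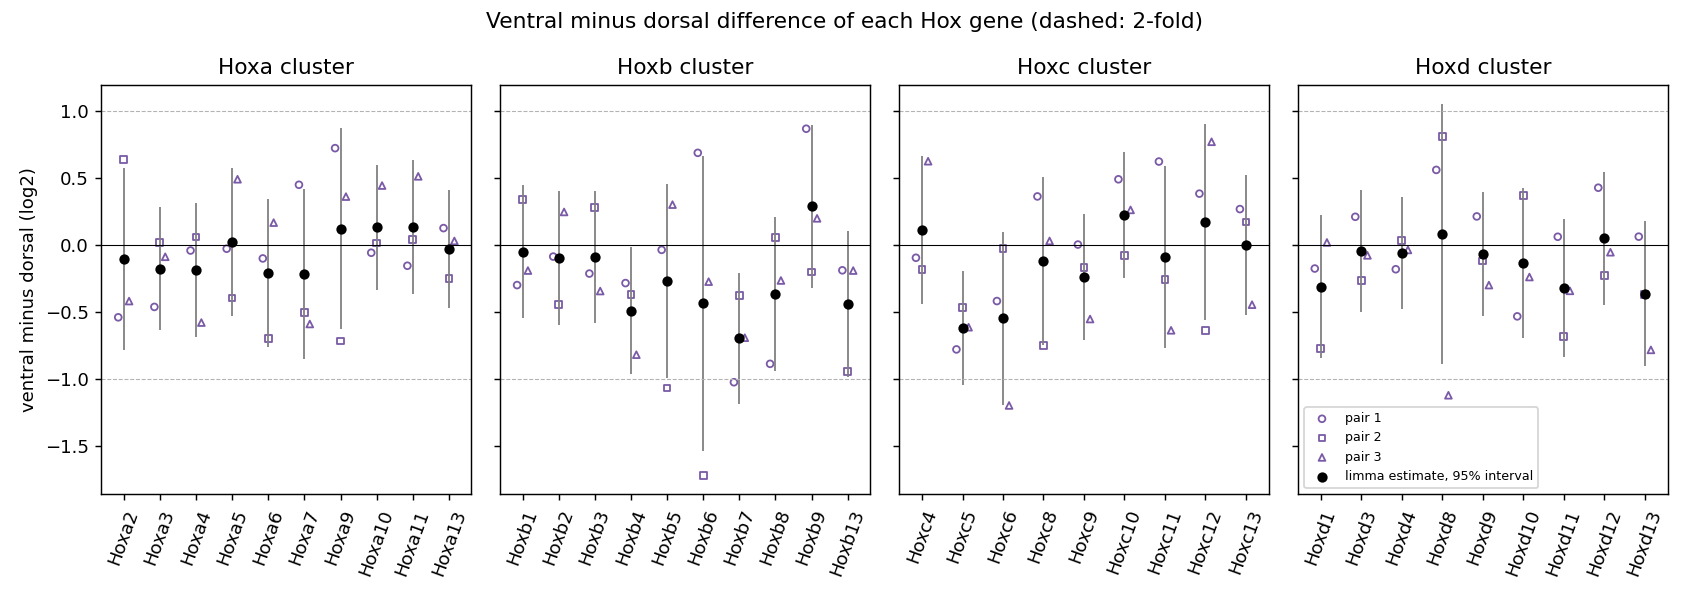
Ventral minus dorsal difference (log2) of each Hox gene by cluster, as the limma estimate with its 95% interval (black) and as the difference within each replicate number (open symbols); dashed lines mark a 2-fold change. The intervals of Hoxb4, Hoxb7 and Hoxc5 lie below 0, and that of Hoxb6 spans -1.54 to 0.67.

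The intervals limit how large a difference could have been missed. In 33 of 38 members the 95% interval of the difference lay inside a 2-fold change in either direction, where 80.1% of all genes did. The exceptions were Hoxb6, Hoxb7, Hoxc5 and Hoxc6, whose intervals reached below -1, and Hoxd8, whose interval ran from -0.89 to 1.06. For members near background an array signal can understate the change in transcript level, so these intervals concern the signals.

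By cluster, the Hoxb genes had the lowest median, -0.31 over 10 genes, with 9 below 0. Only Hoxb9 of this cluster lay above 0, at 0.29. Cluster a had a median of -0.07 with 6 of 10 below 0, cluster c -0.09 with 5 of 9, and cluster d -0.07 with 7 of 9. Cyclic loess changed the sign of the cluster c median to 0.07, while the Hoxb median was -0.26 after cyclic loess and -0.27 after median centring. Within replicate numbers 1, 2 and 3 the Hoxb median was -0.20, -0.37 and -0.23, and that of cluster c was 0.27, -0.18 and -0.44. The Hoxb genes were thus the one cluster with a median of 0.1 or more below 0 in each replicate number, a description of 3 pairs of arrays with no test.

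Along the paralogue groups the lowest medians were those of groups 6 and 7. All 3 genes of group 6 and both of group 7 lay below 0, with medians of -0.43 and -0.45. The medians of groups 1 to 5 ran from -0.09 to -0.27, with 12 of 14 genes below 0. Group 9 had 2 of 4 genes below 0 and group 10 had 1 of 3, with medians of 0.03 and 0.14. In group 12, 0 of 2 lay below 0, with a median of 0.11. Groups 8, 11 and 13 had 2 of 3, 2 of 3 and 3 of 4 genes below 0, with medians of -0.12, -0.09 and -0.20. Taken as bands, the medians were -0.10 for groups 1 to 5, -0.21 for groups 6 to 9 and -0.01 for groups 10 to 13. The last of these changed sign under both scalings, to 0.09 after cyclic loess and 0.03 after median centring.

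**Figure D3:**
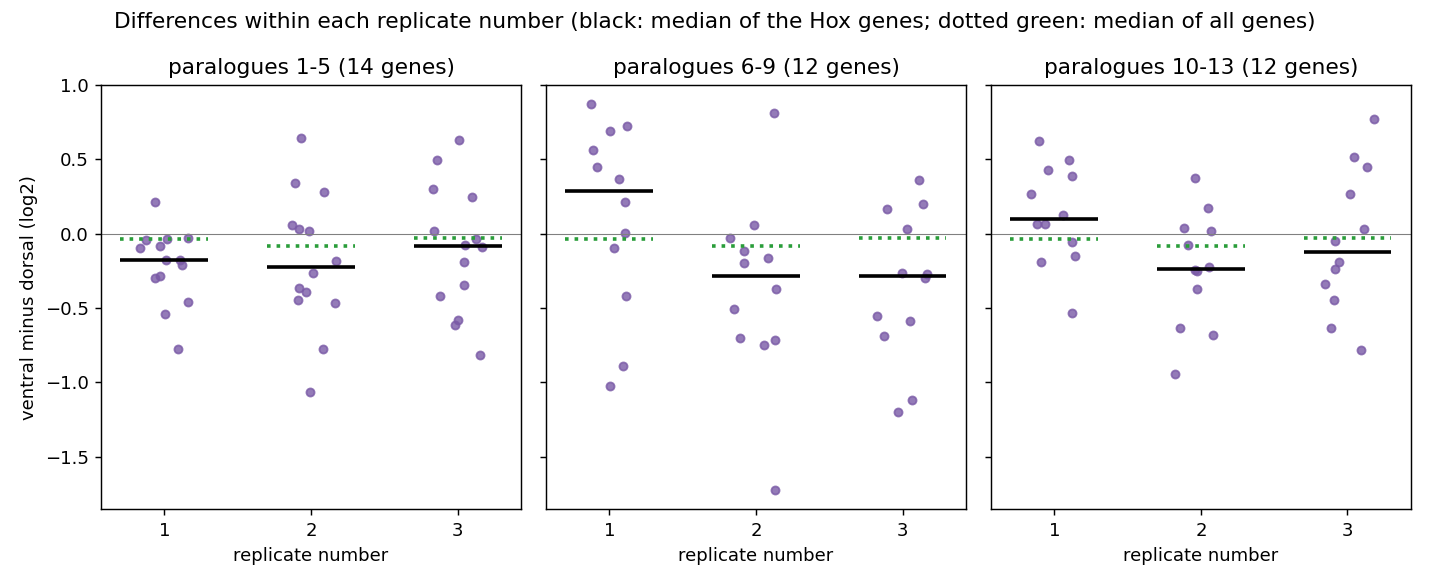
Ventral minus dorsal difference (log2) of single Hox genes within replicate numbers 1, 2 and 3, for paralogue groups 1 to 5, 6 to 9 and 10 to 13; black bars are the Hox medians and dotted green bars the medians of all genes. In number 1 the Hox median is -0.18 for groups 1 to 5 and 0.29 for groups 6 to 9.

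The replicate numbers disagreed on the middle groups. In number 1, 13 of 14 genes of groups 1 to 5 were lower in ventral tissue, but only 4 of 12 of groups 6 to 9 and 4 of 12 of groups 10 to 13. In number 2 the counts were 8 of 14, 10 of 12 and 8 of 12, and in number 3 they were 9 of 14, 8 of 12 and 7 of 12. The median of groups 6 to 9 was 0.29, -0.29 and -0.28 in numbers 1, 2 and 3. Hoxb6 shows the spread: its signal was 3.71, 5.08 and 3.75 dorsally and 4.40, 3.36 and 3.48 ventrally. Its within-number differences ran from 0.69 to -1.72, so its mean difference of -0.43 is smaller than its spread. Hoxd8 had the widest dorsal range of the members, 2.01, with 3.74, 3.16 and 5.17 dorsally and 4.30, 3.98 and 4.05 ventrally.

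Among the members with higher signals, Hoxc6 had the largest difference, and the differences of Hoxa3, Hoxd4 and Hoxd10 were between -0.18 and -0.06. Hoxc6, a gene of the upper thoracic trunk, had 4.32, 4.76 and 5.12 dorsally and 3.90, 4.74 and 3.92 ventrally. Ventral array 2 lay within the dorsal range, and the difference was -0.55 ± 0.26 (SE) with an unadjusted limma p of 0.0832. It was -0.22 without the arrays of number 3 (limma p 0.398) and -0.81 without those of number 2 (limma p 0.0340). Hoxa3, which acts in the pharyngeal arches, had 4.62, 4.39 and 4.49 dorsally and 4.16, 4.41 and 4.40 ventrally, a difference of -0.18 with a 95% interval from -0.63 to 0.28. Hoxd4 had 4.14, 3.90 and 4.17 against 3.96, 3.94 and 4.13, a difference of -0.06 with an interval from -0.48 to 0.36. Hoxd10, a gene of the lumbar cord and limb, had 5.36, 4.57 and 5.17 against 4.82, 4.94 and 4.94. It was the 1 member above the 90th percentile of the array in all 6 arrays, and its difference was -0.13 with an interval from -0.69 to 0.43.

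The remaining genes given in full had unadjusted limma p between 0.151 and 0.206. Hoxd13, a gene of digits and the genital tubercle, had 2.96, 3.52 and 3.64 dorsally and 3.03, 3.15 and 2.85 ventrally. Hoxd11, which acts in the forearm and kidney, had 3.38, 3.89 and 3.54 against 3.44, 3.21 and 3.20. Hoxb8 had 3.55, 2.32 and 2.76 against 2.67, 2.38 and 2.50, and Hoxd1 had 3.14, 3.78 and 3.24 against 2.97, 3.01 and 3.26. In each of these genes 1 or more ventral arrays lay within the dorsal range. The other 26 members had differences from -0.43 to 0.29 and adjusted limma p of 0.674 or more. The highest of them was Hoxb9, at 3.09, 3.81 and 3.81 dorsally and 3.96, 3.61 and 4.01 ventrally.

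Promoter sequences from RefSeq (GRCm38.p6, 250 bases before the start of the gene, plus strand, 5′ to 3′) were held for 22 of the 38 members. This is too few for a check over the family. Those of Hoxb4, the member under 0.05 with an entry, Hoxb8, a known target of miR-196, and Hoxd10, the member above the 90th percentile throughout, are shown so that the differences can be set beside the sequences. Capitals mark matches on either strand to the E-box CACGTG, the box CCAAT, the TATA box TATAAA, the Hox-Pbx motif TGATNNAT and the Cdx-like motif TTTATTG.
Hoxb4: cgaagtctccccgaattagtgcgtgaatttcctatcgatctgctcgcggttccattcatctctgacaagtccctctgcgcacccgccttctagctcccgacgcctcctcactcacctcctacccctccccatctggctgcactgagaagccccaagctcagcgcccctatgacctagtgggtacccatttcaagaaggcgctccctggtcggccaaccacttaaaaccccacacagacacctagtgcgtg
Hoxb8: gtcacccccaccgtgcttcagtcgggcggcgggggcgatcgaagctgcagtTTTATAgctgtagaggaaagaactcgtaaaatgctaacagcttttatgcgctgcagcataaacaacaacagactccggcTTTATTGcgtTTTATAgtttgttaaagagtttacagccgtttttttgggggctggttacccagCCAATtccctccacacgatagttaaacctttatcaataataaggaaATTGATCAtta
Hoxd10: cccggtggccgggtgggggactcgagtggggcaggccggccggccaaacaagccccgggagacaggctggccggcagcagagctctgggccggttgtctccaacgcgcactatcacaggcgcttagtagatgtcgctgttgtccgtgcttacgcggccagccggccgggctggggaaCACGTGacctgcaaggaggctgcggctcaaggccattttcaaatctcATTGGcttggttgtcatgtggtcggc

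These windows lie at chr11:96318017-96318266 for Hoxb4, chr11:96281655-96281904 for Hoxb8 and chr2:74691641-74691890 for Hoxd10. Hoxb8 held 2 matches to TATAAA, 1 to TTTATTG, 1 to CCAAT and, from 11 to 4 bases before the start, 1 to TGATNNAT. Hoxd10 held 1 match to CACGTG, from 73 to 68 bases before the start, and 1 to CCAAT. The Hoxb4 window held none of these letters, which says only that. Among the 32851 promoter windows of the same length in the table, 33.8% held CCAAT, 12.4% TATAAA, 7.68% TGATNNAT, 6.02% CACGTG and 4.2% TTTATTG. The windows differed in base composition, with 44.4% G and C for Hoxb8, 58% for Hoxb4 and 65.6% for Hoxd10.

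Among non-coding genes inside the clusters the differences ran from -0.88 to 0.95, against -0.70 to 0.29 for the Hox genes. Of 17 listed genes 15 were measured, 9 had a difference below 0, and the median was -0.09, which turned to 0.048 when genes under the 25th percentile were left out. None passed the threshold. At an unadjusted p under 0.05 there were 2 of 15 lower in ventral tissue, where 5.9% of all genes were, and 1 higher, where 4.32% were. The higher one was Mir615, a microRNA gene that lies within the RefSeq bounds of Hoxc5. Its signal was 4.71, 4.69 and 4.34 in dorsal arrays 1, 2 and 3, and ventrally it was 5.56, 5.61 and 5.42. All ventral values exceeded all dorsal values, and the difference was 0.95 ± 0.17 (SE) with an unadjusted limma p of 0.0016 and an adjusted p of 0.371. The difference of the host gene Hoxc5, -0.62, thus had the opposite sign, with every Hoxc5 value below the median of its array. Neither gene passed the threshold, and their difference from each other was not tested.

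The lower ones were Hoxb3os and Mir10b. Hoxb3os, an antisense transcript of the Hoxb cluster that lies next to Hoxb4 in gene order, had 3.68, 4.91 and 4.19 dorsally and 3.12, 3.75 and 3.28 ventrally. Ventral array 2 exceeded dorsal array 1, and the difference was -0.88 ± 0.19, with an unadjusted limma p of 0.00446 and, without the block, of 0.0288. Hoxb3, whose name it carries, had a difference of -0.09 with an unadjusted limma p of 0.667. Mir10b, in the Hoxd cluster, had 2.19, 1.99 and 2.79 dorsally and 1.72, 1.59 and 1.74 ventrally. Its relative Mir10a, in the Hoxb cluster, had 2.05, 2.17 and 2.18 against 1.78, 1.66 and 1.75. Neither miR-10 gene overlapped between the groups, and both lay below the array median throughout. The unadjusted limma p was 0.0213 for Mir10b and 0.0563 for Mir10a, which was 0.0225 without the block.

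The mature microRNAs of these genes are shown because their seeds group them, as RefSeq gives them with the seed, bases 2 to 8, in capitals. The array reports a microRNA gene as a whole, so the arms and the mature forms cannot be told apart.
miR-615-3p: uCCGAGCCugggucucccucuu
miR-615-5p: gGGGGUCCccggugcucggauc
miR-10a-5p: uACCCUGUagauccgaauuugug
miR-10b-5p: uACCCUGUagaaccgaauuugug
miR-196a-5p: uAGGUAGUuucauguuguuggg

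On GRCm38.p6, plus strand, miR-615-3p lies at chr15:103014969-103014990 and miR-615-5p at chr15:103014926-103014947, both inside Hoxc5. The miR-10a-5p sequence lies at chr11:96317186-96317208 inside the bounds of Hoxb3, and miR-10b-5p at chr2:74726074-74726096 inside the bounds of Hoxd3 and Hoxd4. The miR-196a-5p copies lie at chr11:96265187-96265208 and chr15:102973365-102973386. The miR-10 forms share the seed ACCCUGU and differ by the single substitution U12A, counted from the 5′ end of miR-10a-5p. The miR-196a sequence is carried by Mir196a-1 in the Hoxb cluster and Mir196a-2 in the Hoxc cluster, and miR-196 is known to target Hox transcripts. The difference was -0.22 for Mir196a-1 and 0.33 for Mir196a-2, with unadjusted limma p of 0.367 and 0.102. The antisense and long non-coding genes Hotair, Hottip and Hoxd3os1 had differences of 0.05, -0.03 and -0.09.

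**Figure D4:**
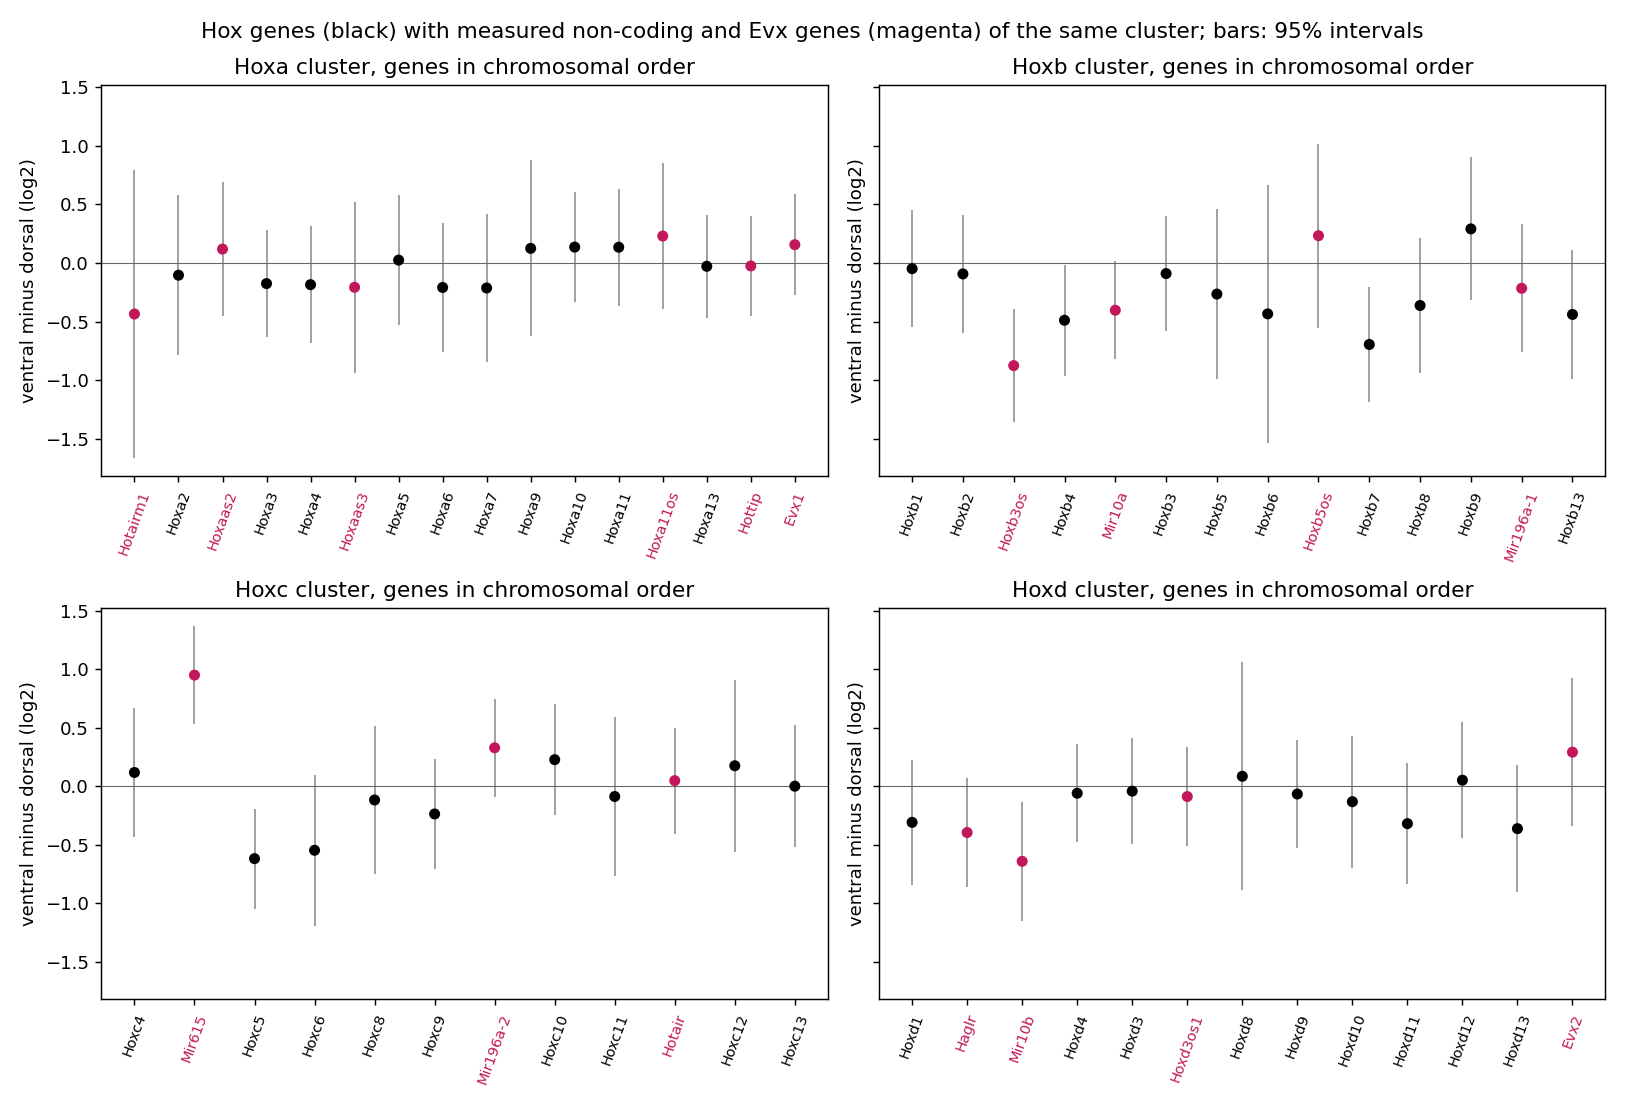
Ventral minus dorsal difference (log2) with 95% intervals for Hox genes (black) and measured non-coding and Evx genes (magenta), placed by gene start from the low-numbered end of each cluster. Mir615 at 0.95 stands beside Hoxc5 at -0.62, and Hoxb3os at -0.88 beside Hoxb4 at -0.49, while Hoxb3 lies at -0.09.

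The TALE cofactors had signals above the array median in all 6 arrays in each of the 8 measured genes. Of these 7 had a difference below 0, with a median of -0.20, and 0 had an unadjusted p under 0.05. Pbx3 had the smallest p, with 4.79, 3.70 and 4.69 dorsally and 3.48, 3.80 and 3.93 ventrally. Ventral arrays 2 and 3 exceeded dorsal array 2, and the difference was -0.65 with an unadjusted limma p of 0.0697. Meis2 was the exception in sign, at 0.37, and Meis3 had -0.26.

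Among regulators known to act upstream of the Hox genes, 13 of 14 listed were measured, 9 lay below 0 and the median was -0.20. Within replicate numbers 1, 2 and 3 the median of this list was -0.13, -0.14 and 0.07. Gdf11, a ligand that promotes the activation of posterior Hox genes, had 3.05, 3.57 and 3.21 dorsally and 2.26, 2.55 and 2.94 ventrally. The groups did not overlap, and the unadjusted limma p was 0.0179, but only 1 value exceeded its array median. Cyp26b1, which breaks down retinoic acid, had a difference of -0.48 with an unadjusted limma p of 0.0338, which was 0.0881 without the block, and Rara, a retinoic acid receptor, had -0.39. The Cdx genes, which activate central Hox genes, had -0.25 for Cdx1, -0.12 for Cdx2 and -0.08 for Cdx4.

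Chromatin regulators of the clusters gave smaller medians. Of the Polycomb proteins, which keep Hox genes silent, 17 of 18 were measured, 9 lay below 0, the median was -0.05 and 0 had an unadjusted p under 0.05. That median was 0.14 without the arrays of number 2 and 0.041 without genes under the median signal, and without the block Rbbp4 had an unadjusted limma p of 0.0490. With the block the smallest unadjusted limma p, 0.0770, belonged to Rbbp4, whose difference was 0.58. Rbbp7 and Phc1 came next by p, with differences of 0.57 and 0.38. Of the Trithorax group and the H3K27 demethylases, which keep Hox genes active, 9 of 9 were measured and 5 lay below 0, with a median of -0.06. Dpy30 had -0.54 with an unadjusted limma p of 0.0239, Kmt2a 0.41 and Kdm6b -0.28. Genes flanking the clusters had a median of -0.11 over 14 of 16, with 8 below 0 and 0 at an unadjusted p under 0.05. They were led by Mtx2 at -1.01, Calcoco2 at -0.47 and Skap2 at -0.34. Of the related homeobox genes Gsx1, Gsx2, Pdx1, Meox1 and Meox2, 4 of 5 lay below 0 with a median of -0.04, and Gsx2 had -0.72 with an unadjusted limma p of 0.0165. None of these genes passed the threshold.

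Markers of other tissues were read in the same fit, and none passed the threshold. All 8 sclerotome markers lay below 0, with a median of -0.49 and 4 lower at an unadjusted p under 0.05, where 5.9% of all genes were. The median signal of this list was 4.05 to 4.37 in the dorsal and 3.65 to 3.71 in the ventral arrays. Sclerotome itself expresses Hox genes, and the part of these marker differences in the Hox differences was not tested. Lower at an unadjusted p under 0.05 were also 2 of 6 nephric markers, Sall1 at -0.96 (limma p 0.00285) and Pax8 at -0.47. In that list Osr1 lay at 0.54 and Lhx1 at 0.32, and all ventral values of Lhx1 lay above all its dorsal values. Of 8 markers of splanchnic and lateral plate mesoderm 1 was lower at that p, Foxf2 at -0.71. Gata6 and Prrx1 of this list lay at 0.45 and 0.34. Higher at that p, where 4.32% of all genes were, were 2 of 6 markers of gut endoderm, Cldn6 at 0.55 and Foxa3 at 0.53. In that list 4 of 6 lay below 0, with a median of -0.13. All ventral values of Epcam, at -0.24, lay below all its dorsal values. Of 8 neural tube markers 1 was higher at that p, Nes at 0.84, with 3 below 0 and a list median of 0.07. The lists for notochord, myotome, neurons, coelomic epithelium, endothelium and blood held 0 such genes, with medians from -0.25 to 0.11. Ventral array 1 stood apart for some neural tube markers: Sox2 was at 7.61 there and no higher than 2.73 in the other 5 arrays, and Nes was at 5.29 there and between 3.30 and 4.06 elsewhere. Irx3 and Pax6 were also highest there, while Sox1, Nkx6-1, Olig2 and Hes5 were not. The median of the 8 neural tube markers was 3.82 in that array and 3.31 to 3.68 in the others. Without ventral array 1, in a fit without the block, 31 of 38 Hox genes lay below 0, where 57.7% of all genes did. The median in this fit was -0.16 over the Hox genes and -0.058 over all genes. Hoxb7 and Hoxc5 were the members at an unadjusted p under 0.05. This count below 0 was the highest of the fits. The lowest over all 38 members was 22, without the arrays of number 2, where 55.2% of all genes lay below 0. The part of the neural markers in these counts was not tested. Of the 6 endothelial markers 1 exceeded the array median in all arrays, and the embryonic globin Hbb-y lay between 7.07 and 10.5. In tissue pieces, fewer cells of a type and less RNA per cell cannot be told apart.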

How the data were processed

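The deposited table held log2 RMA signals made by the authors with Affymetrix Expression Console and RMA, per the submitters' processing notes, with 1 value per probe set and array (for versions and genome build: not given in the sources used here). Their log base was inferred from a range of 0.97 to 12.9. Of 25429 probe sets 24675 had 1 symbol, 754 had none and 0 had several.

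All 24675 genes were fitted in limma 3.58.1 under R 4.3.3 (lmFit and eBayes, two-sided, Benjamini-Hochberg, threshold 0.05), with no filter on dim genes. The replicate number was a block: both regions came from the same embryos, per the labels' protocols, but the labels do not tie equal numbers to one embryo, and the data did not show it. With 3 against 3 arrays an exact permutation p of a single gene cannot go below 0.1. The number of arrays limits the precision. Alternatives were no block, cyclic loess, median centring, filters at the 25th percentile and the median, a robust intensity trend, array weights, and leaving out arrays. The procedure was tested on simulated data.

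Given in full were Hox genes at an unadjusted p under 0.05, the 3 with the smallest p in each band of paralogues, and those above the 75th percentile of all 6 arrays; of other lists, up to 3 with the smallest p. Hoxb3, Hoxb6, Hoxb9, Hoxd8, Irx3, Pax6, Nkx6-1, Olig2, Hes5, Osr1, Hbb-y, the Cdx genes, Mir10a, Mir196a, Hotair, Hottip and Hoxd3os1 were chosen after their values were seen. The members and lists were chosen with earlier results of these data known. Gene order and sequences come from RefSeq on GRCm38.p6, which held all 38 members.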

Additional observations from a re-analysis of the deposited data

How the results depend on the processing

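No Hox gene passed the adjusted threshold in limma under any of the 16 alternatives. Over all genes 1 passed with no replicate block, and 0 to 5 did when arrays were left out. The same-numbered arrays did not deviate together, with correlations of 0.04, -0.01 and 0.06 against -0.06 to 0.03 for other pairs, so they may share only a number. Hoxb4 was under an unadjusted p of 0.05 with the block and not without it, and Hoxb7 and Hoxc5 were under it in both fits. Genes at an unadjusted p under 0.05 numbered 1457 lower and 1065 higher in ventral tissue, a ventral share of 42.2% that became 52.4% after cyclic loess and 53.5% after median centring. Without genes under the 25th percentile 877 of the 18506 genes left were lower. Without those under the median 492 of 12338 were lower and 672 higher. There 21 Hox genes were left to test, with 1 of them lower. Groups did not overlap for 1 of these Hox genes, lower in ventral tissue, where this held for 1081 of the 12338 genes. Leaving out 1 array or both of a number gave 946 to 2089 of the 24675 genes lower and 819 to 1146 higher. Of the Hox genes 1 to 5 were lower and 0 to 1 higher. Groups that did not overlap were found for 4 to 12 Hox genes lower and 0 to 4 higher. With fewer arrays groups overlap less easily, and the same share over all genes was not computed for these fits. These counts without overlap are therefore no result about the Hox genes. The members under 0.05 changed between these fits. Without number 1 only Hoxb6 was, without number 2 Hoxb7, Hoxc5 and Hoxc6 were, and without number 3 Hoxb7, Hoxc5 and Hoxd8 were. Without dorsal array 1 they were Hoxa7, Hoxb13, Hoxc5, Hoxc6 and Hoxd13. Without dorsal array 2 they were Hoxb7, Hoxb8 and Hoxc5, and without dorsal array 3 Hoxc5 and Hoxd8. Without ventral array 2 they were Hoxc5 and Hoxc6, and without ventral array 1 or 3 they were Hoxb7 and Hoxc5. In those fits the medians ran from -0.11 to 0.058 for cluster a, from -0.37 to -0.19 for cluster b, from -0.36 to 0.019 for cluster c and from -0.17 to -0.041 for cluster d. They ran from -0.18 to -0.066 for groups 1 to 5, from -0.31 to -0.054 for groups 6 to 9 and from -0.12 to 0.038 for groups 10 to 13. The median ran from -0.19 to -0.012 for the non-coding genes, from -0.085 to 0.14 for Polycomb, from -0.16 to 0.0076 for the flanks and from -0.17 to 0.13 for the related homeobox genes. For the TALE cofactors it ran from -0.30 to -0.097, and for the upstream regulators from -0.27 to -0.072. Hoxd10 ran from -0.38 to 0.068, above 0 without number 1 and, at 0.030, without dorsal array 1; the cause was not tested. Of the 38 members 13 lay below 0 and 2 above 0 in every alternative run, and 23 changed sign in at least 1.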
